A study of Mus musculus with 16 samples.

Results

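Trp53, which encodes the transcription factor p53, and 9 genes known as direct targets of p53 (Mdm2, Cdkn1a, Ccng1, Trp53inp1, Phlda3, Zmat3, Aen, Eda2r and Btg2) were followed through the degradation of RUVBL2 in mouse embryonic stem cells (mESCs). The 10 genes were chosen by name, with earlier results of these data known, and found by their gene symbol among the 55335 genes of the table. All 10 passed the filter on low counts, as did 15155 genes in all. RUVBL2 is an AAA+ ATPase that acts with RUVBL1 in chromatin remodeling and in the assembly of large protein complexes. Poly(A) RNA was sequenced in 8 conditions of 2 libraries each, 16 libraries in all, and the question was which genes depend on RUVBL2.

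All cells were V6.5 mESCs of 1 degron line, in which both copies of Ruvbl2 carried an mAID-GFP tag and the plant F-box protein OsTIR1 was placed under Tet-ON control. The Mock cells received neither drug. The 0 h cells had 2 µg/ml doxycycline (Dox) for 24 h, which induces OsTIR1, and no auxin. The other cells had the same 24 h of Dox and then 500 µM auxin, which leads to the degradation of tagged RUVBL2, for 0.5, 1, 6, 12, 24 or 48 h. Cells were cultured on irradiated mouse embryonic fibroblasts (MEFs) with LIF and were harvested after passages off these feeders. Time after Dox grows with time in auxin, so the effects of both cannot be told apart at the later times. The methods call the libraries of a condition technical duplicates and the results call them replicates, so the p-values speak only of the spread between libraries, and that spread may be technical.

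p53 is kept low in unstressed cells by the ubiquitin ligase MDM2, whose gene is itself activated by p53, so that the pair forms a negative feedback loop. DNA damage and other stresses stabilize the protein, which then binds its sites in DNA and activates genes of cell cycle arrest, apoptosis, repair and metabolism. Since the level of p53 is largely set at the protein, its mRNA and the mRNAs of its targets need not move together. In mESCs p53 is known to be abundant, and it also takes part in the loss of pluripotency after damage.

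Values are counts divided by the TMM-normalized library size (CPM), written for the 2 libraries of a condition as library 1/library 2, and total expected counts were 11666732 to 13924958 per library. Across genes, the correlation of log2(CPM + 1) between the 2 libraries of a condition was 0.9952 to 0.9962. Calls come from the quasi-likelihood test of edgeR and need both a Benjamini-Hochberg adjusted p (padj, over all genes tested) under 0.05 and a fold change over 1.5, or 0.58 on the log2 scale. Values after ± are standard errors (SE) of the fit. "Higher", "lower", "rose" and "fell" are used of called genes. The 11 embryonic stem cell markers, Pou5f1, Nanog and Sox2 among them, were all detected, with summed TPM of 10418 to 13265. In bulk libraries, fewer cells of a type and less RNA per cell cannot be told apart.

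Stretches of promoter that hold p53 sites are shown first, since they tie the target list to sequence. The p53 decamer consensus of 10 bases was searched in windows from 250 bases before to 50 bases after RefSeq start sites (GRCm38.p6). The consensus is its own reverse complement, so that a match stands on both strands. Windows were matched by symbol for 8 of the 10 genes (10 windows, 2 each for Cdkn1a and Aen), and those of Trp53inp1 and Zmat3 were not used here. A decamer was found in 6 of the 10 windows, against 8.36% of all 32851 windows. A pair of decamers within 13 bases of each other was found in 1 of the 10, in Cdkn1a, against 0.0731% of all. Adjacent decamers with at most 1 base off in both together were found in 2 of the 10, in Cdkn1a and Ccng1, against 0.067% of all, and this looser search was added after the Cdkn1a window had been seen. Capitals mark these 20 bases. The Cdkn1a stretch lies at chr17:29090908-29090967 on the plus strand and its site starts 51 bases before the start site of that window. The other Cdkn1a window (chr17:29093519-29093818) held no decamer and no such site. The Ccng1 stretch lies at chr11:40755442-40755501 on the minus strand and its site starts 195 bases before the start site. In Cdkn1a the base off the consensus is in the second decamer, and in Ccng1 it is in the first.
Cdkn1a: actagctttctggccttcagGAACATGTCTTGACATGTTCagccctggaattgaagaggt
Ccng1: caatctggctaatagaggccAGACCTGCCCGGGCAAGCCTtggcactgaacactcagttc

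Single decamers stood in the windows of Trp53, 75 bases before the start site (chr11:69580284-69580293, plus strand), of Mdm2, 186 bases before it (chr10:117710935-117710944, minus strand), and of Aen (chr7:78895937-78895946, plus strand), where 1 site fell in both windows. They are shown so that the sequences can be set beside those of Cdkn1a and Ccng1. No match to these letters was found in the windows of Phlda3, Eda2r and Btg2, and gene bodies were not searched. A match describes the sequence and does not show binding in these cells.
Trp53: GGACTTGCCC
Mdm2: GAACTTGCCT
Aen: GGGCTTGTCC

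Levels are compared between genes in TPM, which is scaled by gene length. Trp53 had the highest TPM of the 10 genes in all 8 conditions, from 240 ± 7.11 (SD, n = 2) at 12 h to 384 ± 6.57 at 48 h. Ccng1, which encodes cyclin G1, came second in every condition, at 147 to 218 TPM. Zmat3, Eda2r and Btg2 took the last 3 places in every condition, between 7.06 and 19.2 TPM. The middle of the order moved with time in auxin. Cdkn1a had rank 3 at 0 h (86.3 ± 1.15 TPM) and rank 6 at 48 h (53.4 ± 2.55 TPM), while Phlda3 had rank 7 at 0 h (34.4 ± 1.57 TPM) and rank 4 at 48 h (68.1 ± 2.98 TPM), with the SD of 2 libraries. Neighbours whose libraries overlapped in this order were Mdm2 and Phlda3 in Mock and at 24 h, Trp53inp1 and Mdm2 at 0 h, Eda2r and Zmat3 at 0.5 h, and Phlda3 and Trp53inp1 at 12 h.

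**Figure D1:**
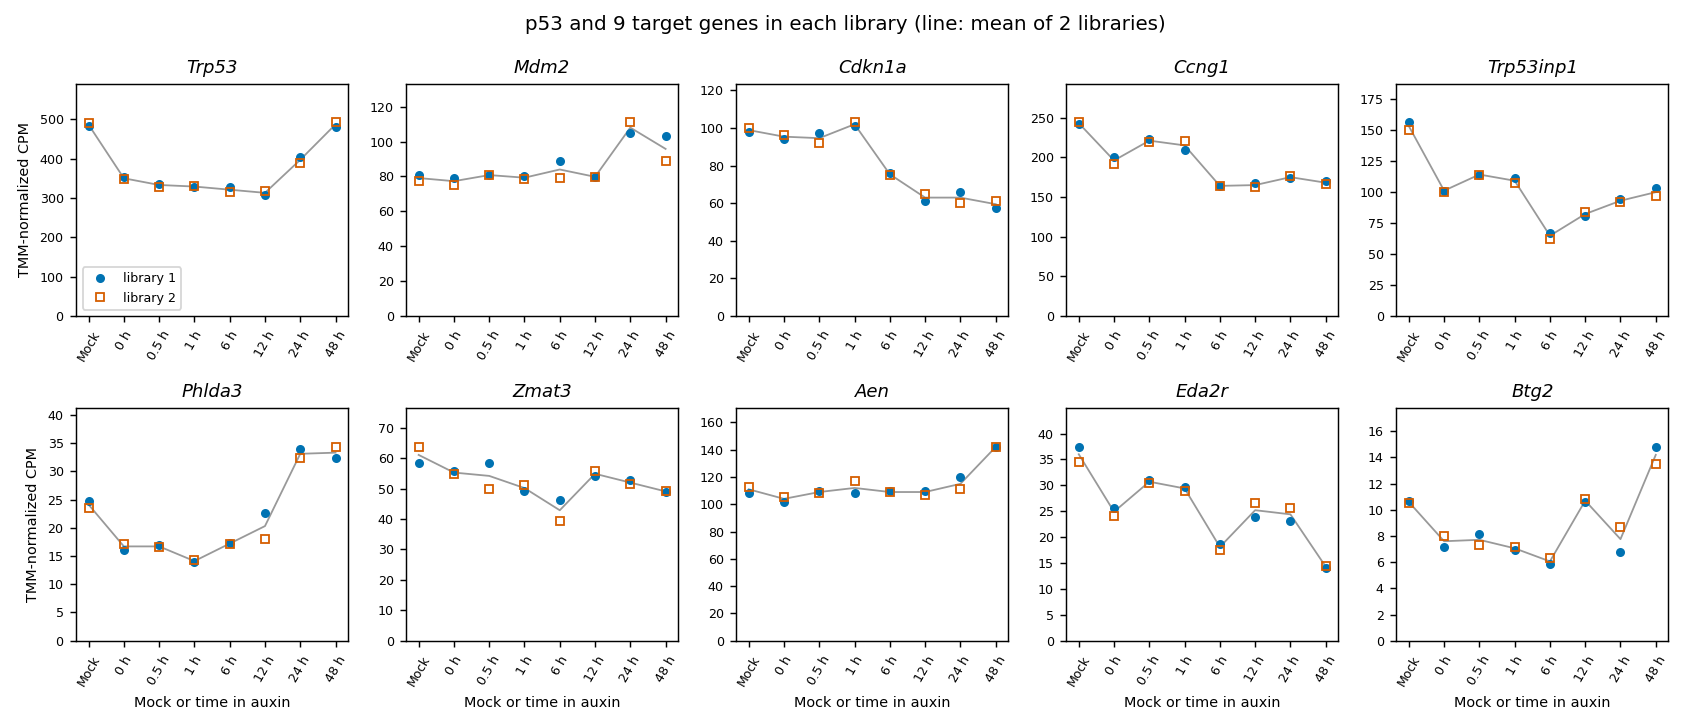
TMM-normalized CPM (y axis, from 0) of Trp53 and 9 target genes in Mock and at each time in auxin (x axis), with 1 point for each of 2 libraries and a line through their mean. Cdkn1a runs down from 102 CPM at 1 h to 59.5 at 48 h, Phlda3 runs up from 14.1 CPM at 1 h to 33.3 at 48 h, and Trp53 dips to 313 CPM at 12 h between 486 in Mock and 487 at 48 h.

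The comparison of 0 h with Mock measures Dox and OsTIR1 before any auxin. Trp53inp1, whose product promotes the phosphorylation of p53 and takes part in autophagy, was the only one of the 10 genes called, and it was lower. It had 156/150 CPM in Mock and 101/99.8 at 0 h. Both 0 h libraries lay below both Mock libraries. The log2 fold change was -0.61 (± 0.05 SE, padj = 6.4e-10), which is near the threshold. It was -0.57 without library 1 of Mock, where no gene of the 10 was called, and leaving out library 2 of Mock gave 2 lower, with Eda2r at -0.59. Of all genes tested, 5.19% were higher and 4.24% lower in this comparison.

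The log2 fold changes of all 10 genes at 0 h against Mock were negative, with a median of -0.39 against -0.01 over all genes tested, and these signs depend on the scaling: with scaling by the number of Drosophila (dm6) reads per library, those of Mdm2, Cdkn1a, Ccng1, Zmat3 and Aen were positive. Trp53 had 482/490 CPM in Mock and 353/347 at 0 h, a log2 fold change of -0.47 (± 0.04 SE, padj = 5.4e-10). Phlda3 and Eda2r each had -0.53 and Btg2 had -0.48. These were under the fold threshold. Cdkn1a and Mdm2 had -0.05 and -0.03, with 95% intervals of -0.16 to 0.06 and -0.17 to 0.10.

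At 0.5 h and 1 h of auxin edgeR called none of the 10 genes, where 0.455% and 0.666% of all genes were higher and 0.277% and 0.541% lower. DESeq2 and limma called 0 of the 10 at both times, and in edgeR 3 genes at 0.5 h and 6 at 1 h had an unadjusted p under 0.05. The share of all genes that pass by unadjusted p or by padj alone is not given here, so such counts cannot be set against it. By padj alone, with no fold threshold, 3 genes passed at 0.5 h and 1 at 1 h. At 0.5 h these were Ccng1 with a log2 fold change of 0.18 (padj = 0.0072), Trp53inp1 with 0.18 (padj = 0.024) and Eda2r with 0.30 (padj = 0.031), and at 1 h it was Ccng1 with 0.13 (padj = 0.033). In all 3 genes these values were above 0 h and under Mock.

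Trp53 (ENSMUSG00000059552.13, chromosome 11 of GRCm38 from 69580359 to 69591873, plus strand) was called in none of the 8 comparisons, and its libraries traced a dip and a return. They had 353/347 CPM at 0 h, 336/329 after 0.5 h, 327/331 after 1 h, 328/314 after 6 h, and 308/317 after 12 h. They then had 404/389 CPM after 24 h and 481/492 after 48 h. The libraries at 0.5 to 12 h lay below those at 0 h, and those at 24 and 48 h above them. Neighbours in this order from 0.5 h through 12 h overlapped, as did 48 h and Mock. Against 0 h the log2 fold change was -0.16 (± 0.04 SE, padj = 0.00064) at 12 h, 0.18 (± 0.04 SE, padj = 0.00015) at 24 h and 0.48 (± 0.04 SE, padj = 5.5e-11) at 48 h, all under the fold threshold. With Mock in place of 0 h as the baseline it was -0.60 at 6 h and -0.64 at 12 h, both past the threshold, and 0.00 at 48 h (± 0.04 SE, padj = 0.94).

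Mdm2 (ENSMUSG00000020184.15, chromosome 10 from 117688875 to 117710758, minus strand), the ubiquitin ligase of the feedback loop, was also called in no comparison. It had 79.3/75.2 CPM at 0 h, 79.7/79.8 after 12 h, 105/111 after 24 h, and 103/88.9 after 48 h. All 4 libraries at 24 and 48 h lay above the 12 libraries of the other 6 conditions. The log2 fold change against 0 h was 0.49 (± 0.06 SE, padj = 2e-07) at 24 h and 0.31 (± 0.06 SE, padj = 0.00015) at 48 h, under the fold threshold. Up to 12 h it was at most 0.12, at 6 h (95% interval -0.01 to 0.25).

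Ccng1 (ENSMUSG00000020326.7, chromosome 11 from 40748552 to 40755311, minus strand), which encodes a cyclin that binds the phosphatase PP2A and acts on MDM2, was called in no comparison. It had 242/244 CPM in Mock, 200/191 at 0 h, 223/219 after 0.5 h, and 164/164 after 6 h. At 48 h it had 170 and 166 CPM. The libraries from 6 h on all lay below those at 0 h. The log2 fold change against 0 h was -0.25 (± 0.04 SE, padj = 2.1e-05) at 6 h and -0.22 (± 0.04 SE, padj = 5.4e-05) at 48 h.

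Cdkn1a (ENSMUSG00000023067.14, chromosome 17 from 29090976 to 29100727, plus strand) encodes p21, the inhibitor of cyclin-dependent kinases through which p53 halts the cell cycle. It was lower after 12, 24 and 48 h of auxin than at 0 h. Its libraries had 94.3/96.4 CPM at 0 h, 97.2/92 after 0.5 h, 101/103 after 1 h, and 76/74.8 after 6 h. They had 61.2/64.7 CPM after 12 h, 66/59.9 after 24 h, and 57.5/61.4 after 48 h. The level at 6 h lay between those of the early and the late times, and the libraries of 12, 24 and 48 h overlapped in their order. Against 0 h the log2 fold change was -0.34 (± 0.05 SE, padj = 1.6e-05) at 6 h, which was under the fold threshold, -0.60 (± 0.06 SE, padj = 2.4e-09) at 12 h, -0.60 (± 0.06 SE, padj = 1.2e-09) at 24 h and -0.68 (± 0.06 SE, padj = 1.7e-10) at 48 h. The calls at 12 and 24 h rest on values near the threshold. At 12 h the log2 fold change was -0.58 without library 2 of 0 h and -0.56 without library 1 of 12 h, at 24 h it was -0.58 without library 2 of 0 h and -0.53 without library 2 of 24 h, and the call was lost in each. Cdkn1a shares 273 exon bases with an annotated transcript on the opposite strand, AC167363.2 in GENCODE M21, and no gene of that name is among the genes counted. The strand used in counting was not given in the sources used here, so reads of the overlap cannot be told apart. Some expected counts of Cdkn1a were fractional, for example 774.87 in library 1 at 12 h, and the source of this was not tested.

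Btg2 (ENSMUSG00000020423.6, chromosome 1 from 134075170 to 134079120, minus strand), an antiproliferative gene whose product binds the CCR4-NOT deadenylase, moved the other way at 48 h. It had 7.16/8.03 CPM at 0 h, 5.83/6.29 after 6 h, 10.6/10.8 after 12 h, 6.79/8.72 after 24 h, and 14.8/13.5 after 48 h. The 48 h libraries lay above all others, and those at 24 h overlapped with 0 h. Btg2 was higher at 48 h than at 0 h (log2 fold change 0.90, ± 0.14 SE, padj = 3.4e-06) and higher at 48 h than at 24 h (0.86, ± 0.14 SE, padj = 1.2e-05). At 12 h it had 0.50 (± 0.14 SE, padj = 0.0047), under the fold threshold. It had the lowest mean CPM of the 10 genes in every condition, but at 48 h its libraries overlapped with those of Eda2r (14.1/14.5). Against Mock its log2 fold change at 48 h was 0.42 (± 0.13 SE, padj = 0.0063), which was not called.

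Phlda3 (ENSMUSG00000041801.5, chromosome 1 from 135766119 to 135769136, plus strand) encodes a small protein that opposes the kinase AKT at the membrane, and it was higher at 24 and 48 h than at 0 h. It had 24.7/23.5 CPM in Mock, 16.1/17.2 at 0 h, 13.9/14.3 after 1 h, and 17.3/17.1 after 6 h. It had 22.6/18 CPM after 12 h, 34/32.3 after 24 h, and 32.3/34.3 after 48 h. The 4 libraries of 24 and 48 h lay above all others, Mock included. The log2 fold change against 0 h was 0.99 (± 0.10 SE, padj = 3e-09) at 24 h and 1.00 (± 0.10 SE, padj = 3e-09) at 48 h, the largest of the 10 genes in these comparisons. Against Mock it was 0.46 at 24 h and 0.47 at 48 h, under the fold threshold.

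Trp53inp1 (ENSMUSG00000028211.11, chromosome 4 from 11156431 to 11174379, plus strand) was lower at 6 h than at 0 h and came back at the later times. Its libraries had 101/99.8 CPM at 0 h, 114/114 after 0.5 h, 67.2/62.3 after 6 h, 80.6/83.9 after 12 h, 93.9/92 after 24 h, and 103/96.5 after 48 h. At 48 h they overlapped with 0 h. The log2 fold change against 0 h was -0.64 (± 0.05 SE, padj = 7.6e-10) at 6 h, and -0.58 without library 2 of 6 h, where the call was lost. It was -0.29 at 12 h (padj = 3.3e-05), under the fold threshold, and -0.01 at 48 h (95% interval -0.12 to 0.09). Against Mock it was lower at 6, 12, 24 and 48 h, by log2 fold changes of -1.24, -0.90, -0.72 and -0.62.

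Eda2r (ENSMUSG00000034457.10, chromosome X from 97333840 to 97377216, minus strand) encodes a receptor of the tumour necrosis factor receptor family. It had 37.4/34.6 CPM in Mock, 25.6/24.1 at 0 h, 31/30.4 after 0.5 h, 18.7/17.6 after 6 h, and 23.8/26.6 after 12 h. At 24 h it had 23.2 and 25.6 CPM and at 48 h 14.1 and 14.5. The libraries at 12 and 24 h overlapped with 0 h, and those at 48 h were the lowest of all 16. Eda2r was lower at 48 h than at 0 h (log2 fold change -0.80, ± 0.10 SE, padj = 1.2e-07) and lower at 48 h than at 24 h (-0.77, ± 0.10 SE, padj = 5.3e-07). At 6 h its value was -0.46 (± 0.09 SE, padj = 0.00027), under the fold threshold. Against Mock it was lower at 6 h (-0.99, ± 0.09 SE) and at 48 h (-1.33, ± 0.09 SE).

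Aen (ENSMUSG00000030609.18, chromosome 7 from 78895854 to 78911209, plus strand), which encodes an exonuclease of apoptosis, was called in no comparison. It had 102/105 CPM at 0 h, 120/111 after 24 h, and 142/142 after 48 h, with the 48 h libraries above all others. The log2 fold change at 48 h against 0 h was 0.45 (± 0.05 SE, padj = 1.5e-08). Zmat3 (ENSMUSG00000027663.12, chromosome 3 from 32334792 to 32366014, minus strand), which encodes a zinc finger protein that binds RNA, was also called in none. Zmat3 had 55.7/54.9 CPM at 0 h, 46.3/39.4 after 6 h, and 48.8/49.3 after 48 h. Its value farthest from 0 was the log2 fold change of -0.37 at 6 h (± 0.08 SE, padj = 4e-04), and the libraries of 4 of 7 neighbouring conditions in its order overlapped.

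**Figure D2:**
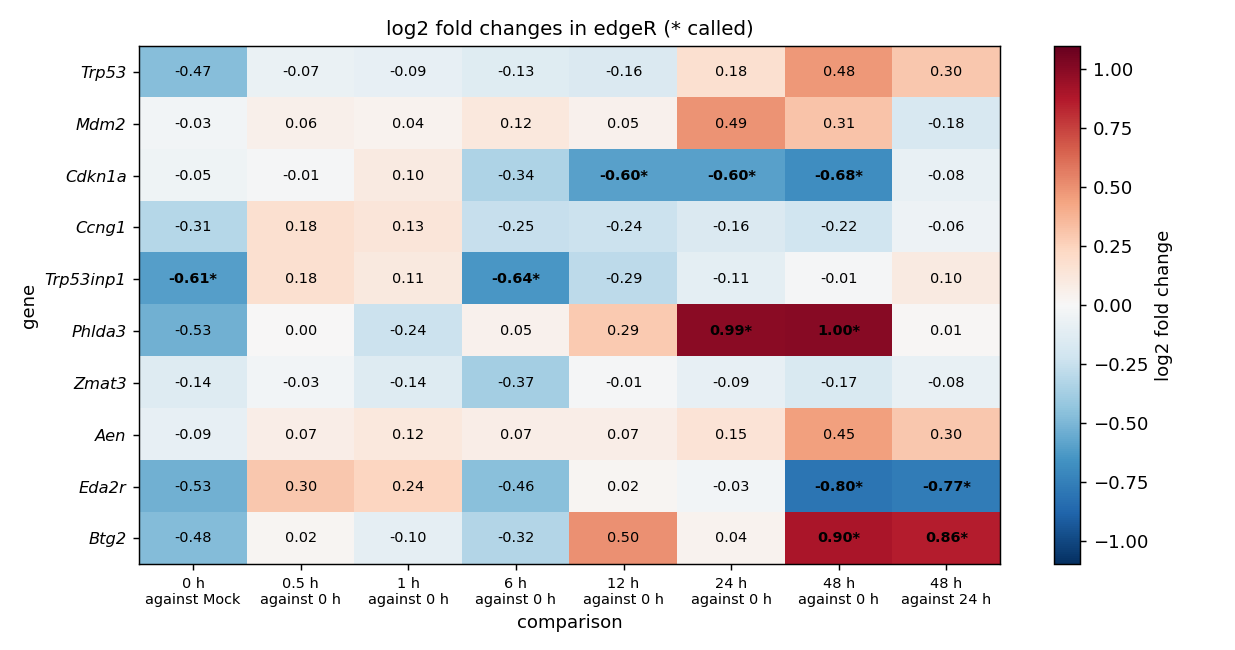
Log2 fold changes of the 10 genes (rows) in the 8 comparisons (columns) in edgeR, coloured from blue (negative) to red (positive), with called values in bold and starred. Calls are few and of both signs, from -0.80 (Eda2r) to 1.00 (Phlda3), both at 48 h against 0 h, and Trp53, Mdm2, Ccng1, Zmat3 and Aen have none.

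Over the 10 genes, the numbers called were small and split between directions. At 6 h 1 was lower, where 10.1% of all genes were higher and 5.7% lower, and at 12 h 1 was lower, where 14.8% of all were higher and 13.2% lower. At 24 h 1 was higher and 1 lower (20.2% and 20.3% of all genes), and at 48 h 2 were higher and 2 lower (17.9% and 17.6% of all). Between 24 and 48 h 1 was higher and 1 lower, against 12.2% and 12.3% of all genes. With 10 genes, 1 gene is 10% of the list, so these shares are near those of all genes. The median log2 fold change of the 10 was -0.29 at 6 h, 0.00 at 12 and 24 h, and 0.15 at 48 h, while that of all genes was between -0.02 and 0.01. With TMM scaling, calls in these 8 comparisons had folds under 2 or, for Phlda3 at 48 h, about 2, and none was called at a fold over 2. Against Mock, Trp53inp1 at 6 h (-1.24 on the log2 scale) and Eda2r at 48 h (-1.33) were called past that fold.

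The choice of scale matters for these small values. Scaling libraries to their dm6 reads moved the median log2 fold change of all genes to 0.38 at 0 h against Mock, to 0.19 at 1 h, to -0.56 at 12 h, to -0.23 at 24 h and to -0.18 at 48 h. Where the dm6 reads of the RNA-Seq come from is not stated in the methods, so what this scale measures is not known. On it, 0 of the 10 genes were called at 0 h against Mock, and 4 were lower at 12 h against 0 h, Cdkn1a with -1.16, Trp53inp1 with -0.85, Ccng1 with -0.80 and Trp53 with -0.72. Relative to the shift of all genes at 12 h these were -0.60, -0.29, -0.24 and -0.16. At 6 h 1 of 1 call, at 24 h 2 of 2, at 48 h 4 of 4 and between 24 and 48 h 2 of 2 were shared by both scales, with the same signs. Over all genes the numbers higher and lower went from 786 and 643 to 3448 and 180 at 0 h against Mock, from 69 and 42 to 62 and 70 at 0.5 h, from 101 and 82 to 463 and 43 at 1 h, from 2247 and 2001 to 879 and 6643 at 12 h, from 3064 and 3072 to 2231 and 4331 at 24 h, and from 2707 and 2673 to 1938 and 3737 at 48 h.

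**Figure D3:**
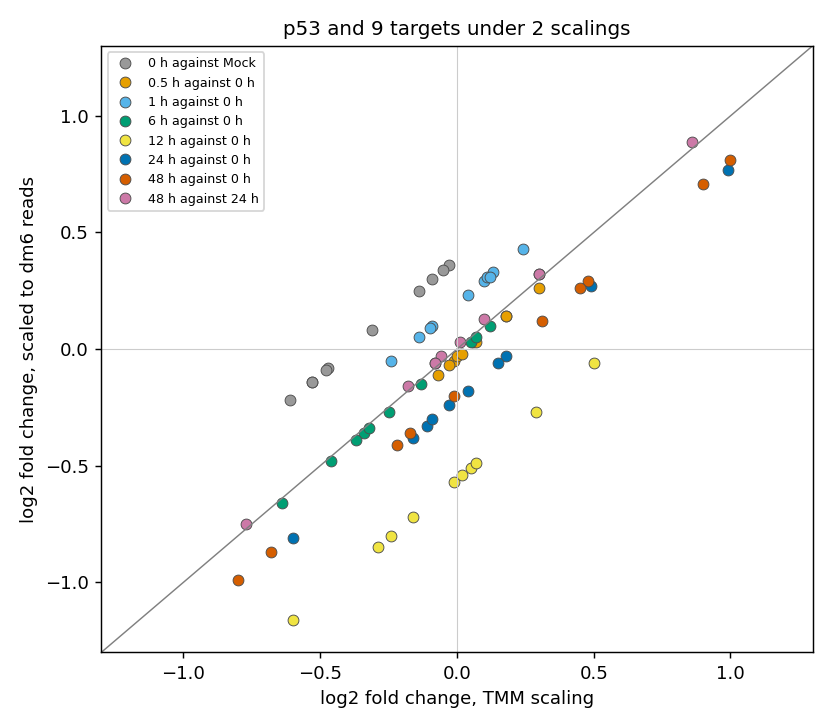
Log2 fold changes of the 10 genes with TMM scaling (x axis) and with scaling to dm6 reads (y axis), 1 point per gene and comparison, coloured by comparison, with the line of equal values. Points at 0 h against Mock lie above the line and those at 12 h lie farthest below it, where Cdkn1a moves from -0.60 to -1.16, and several uncalled values change sign.

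The 10 genes did not share 1 pattern over the 8 condition means, and these correlations of log2 CPM are descriptions, since all share the same libraries. The closest pair was Ccng1 and Trp53inp1 (Pearson's r = 0.88, Spearman's rho = 0.98, n = 8 conditions). Trp53 had r = 0.40 with Mdm2, -0.16 with Cdkn1a and 0.76 with Phlda3. Cdkn1a and Phlda3 ran in opposite directions (r = -0.71), as did Cdkn1a and Mdm2 (r = -0.70). Among genes with a mean of at least 5 CPM, those with the pattern most like Trp53 were Snrpb2 (r = 0.977), Tysnd1 (0.963) and Arfip2 (0.953), those most like Mdm2 were Ippk (0.985), Vac14 (0.974) and Gm10557 (0.973), and those most like Cdkn1a were Zfp37 (0.994), Ift80 (0.992) and Plk4 (0.992), each over 8 conditions.

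A longer list of other p53 targets, also chosen with earlier results of these data known, was counted in the same way. Of its 45 genes 42 were tested, and at 24 h against 0 h 13 were higher (31% of the list, against 20.2% of all genes) and 4 lower (9.52%, against 20.3%), with a median log2 fold change of 0.32 against -0.02 over all genes. At 48 h 11 were higher (26.2%, against 17.9% of all genes) and 6 lower (14.3%, against 17.6%), with a median of -0.11. On the dm6 scale these counts were 11 higher and 7 lower at 24 h and 11 higher and 9 lower at 48 h. Of all 15155 genes tested, 2231 were higher and 4331 lower on that scale at 24 h, and 1938 and 3737 at 48 h. At 6 h 7 were higher (16.7%, against 10.1% of all) and 6 lower (14.3%, against 5.7%). At 12 h 7 were higher (16.7%, against 14.8%) and 5 lower (11.9%, against 13.2%), which became 4 higher and 15 lower on the dm6 scale. On that scale 879 of all 15155 genes tested were higher at 12 h and 6643 lower. At 0.5 h 3 were higher (7.14%, against 0.455%) and 1 lower (2.38%, against 0.277%). At 1 h 4 were higher (9.52%, against 0.666%) and 1 lower (2.38%, against 0.541%). DESeq2 on the 4 libraries of each pair called 2 at each of these times. The 3 higher at 0.5 h were Ddit4 (log2 fold change 1.04), Gdf15 (1.12) and Sesn2 (0.77), and the lower gene was Sfn (-0.62). The same 3 were higher at 1 h, with Plk2 (0.62), and Pidd1 was lower (-0.68). At 0 h against Mock 4 were higher (9.52%, against 5.19%) and 2 lower (4.76%, against 4.24%), or 9 and 1 on the dm6 scale. In this comparison 3448 of all 15155 genes tested were higher and 180 lower on the dm6 scale. Between 24 and 48 h 6 were higher (14.3%, against 12.2%) and 8 lower (19%, against 12.3%).

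**Figure D4:**
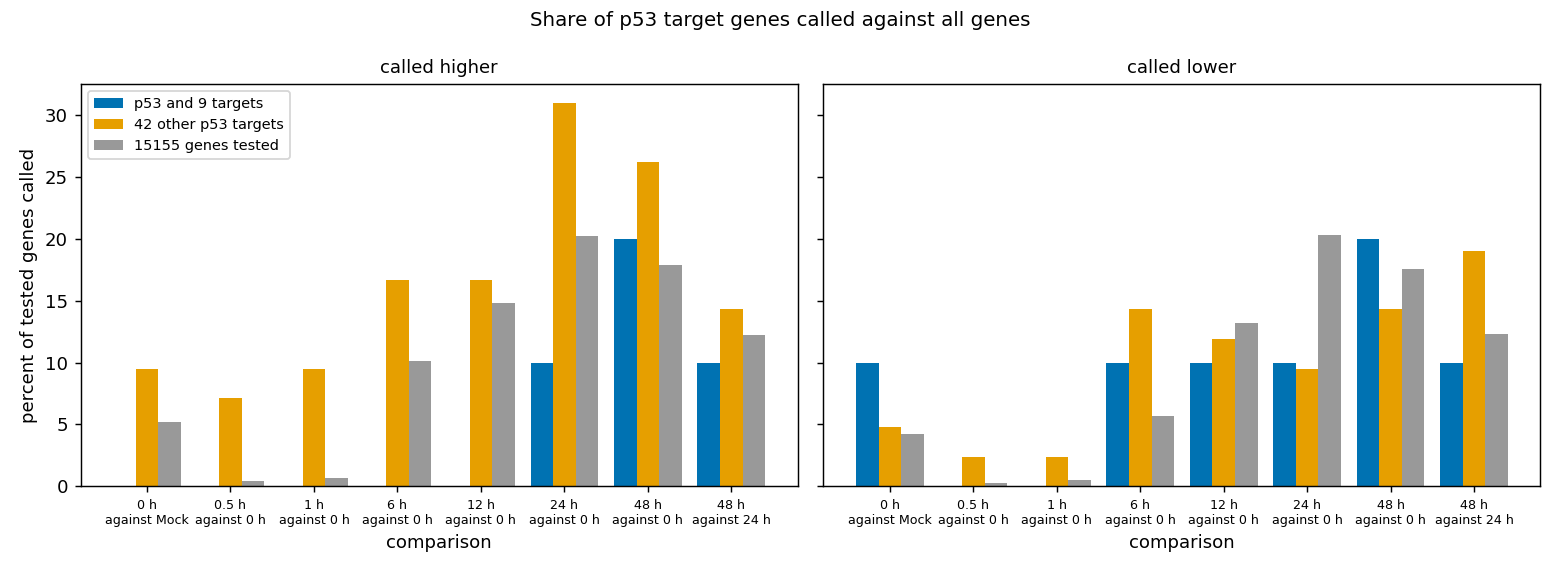
Percent of tested genes called higher (left) and lower (right) in each comparison (x axis), for p53 and its 9 targets, for 42 other p53 targets and for all 15155 genes tested. At 24 h the other targets reach 31% higher against 20.2% of all genes, while 10% of the 10 genes (1 gene) are higher.

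Among the apoptosis genes of this list, of which 8 of 10 were tested, Tnfrsf10b, which encodes a death receptor for TRAIL, had 11.7/12.3 CPM at 0 h and 39.9/40.5 after 24 h. It rose at 24 h with a log2 fold change of 1.74 (± 0.12 SE, padj = 3.4e-12). Bbc3, which encodes the BH3-only protein PUMA, rose by 1.03 (± 0.14 SE) at 24 h and was lower at 6 h (-0.71 ± 0.17 SE). At 48 h Bbc3 had -0.23 against 0 h, not called, and it was lower than at 24 h (-1.26 ± 0.15 SE). Pmaip1, which encodes NOXA, another BH3-only protein, fell in the Dox step (-1.03 ± 0.07 SE) and again in auxin. It had 81.9/82.5 CPM in Mock, 40.7/39.6 at 0 h and 17.7/16 after 24 h, a log2 fold change of -1.25 (± 0.09 SE, padj = 2e-11) at 24 h against 0 h. Bbc3 and Pmaip1 had opposite signs at 24 h. Perp, which encodes a membrane protein of desmosomes and apoptosis, rose by 1.38 (± 0.25 SE) at 6 h from a level of 1.93 and 2.06 CPM.

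Of 16 genes of growth arrest and feedback, 15 were tested, and at 24 h 5 were higher (33.3%, against 20.2% of all genes) and 2 lower (13.3%, against 20.3%). Plk2, a polo-like kinase gene, had 6.88/5.38 CPM at 0 h, 7.35/6.2 after 12 h, 25.9/28.3 after 24 h and 15.4/15.5 after 48 h. Its log2 fold change at 24 h was 2.14 (± 0.13 SE, padj = 4.3e-13). Gadd45a, whose product acts in arrest and repair, rose at 24 h by 1.66 (± 0.19 SE), from 4.58/3.17 to 13.1/11.6 CPM. Gdf15, which encodes a secreted stress cytokine, was higher at every auxin time, by 1.12 (± 0.19 SE) at 0.5 h and 2.06 (± 0.17 SE) at 24 h. It was also higher at 0 h than in Mock, before any auxin, by 0.64 (± 0.24 SE, padj = 0.044). Sfn, which encodes 14-3-3 sigma, an inhibitor of the G2 to M transition, had a log2 fold change of -2.10 at 24 h, a called fall (± 0.08 SE, padj = 1.5e-16), from 59.2/57 CPM at 0 h to 13.5/13.5 after 24 h, and had 49.2/44.7 after 48 h. Sfn was higher at 48 h than at 24 h by 1.80 (± 0.09 SE).

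All 19 genes of repair and metabolism were tested, and at 48 h 5 were higher (26.3%, against 17.9% of all genes) and 3 lower (15.8%, against 17.6%). Ddit4, which encodes the mTORC1 inhibitor REDD1, had 7.24/8.84 CPM at 0 h, 16/17 after 0.5 h, 40.9/41.9 after 6 h, and 100/104 after 48 h. It was higher at every auxin time and reached a log2 fold change of 3.66 (± 0.09 SE, padj = 7.3e-20) at 48 h. Rrm2b, which encodes the p53-inducible subunit of ribonucleotide reductase, had 11.8/11.2 CPM at 0 h, 24.9/22 after 6 h and 41.1/40 after 48 h, a log2 fold change of 1.82 (± 0.10 SE) at 48 h. Fdxr, which encodes the mitochondrial ferredoxin reductase, rose by 1.86 (± 0.12 SE) at 24 h, and Ephx1, an epoxide hydrolase gene, fell by 1.00 (± 0.24 SE) at 48 h. Ddit4, Gdf15 and Gadd45a are among the listed genes that are also known targets of ATF4 or CHOP in the stress response. They are examples and not a full list, and the part of these factors in the values of the listed genes was not tested.

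**Figure D5:**
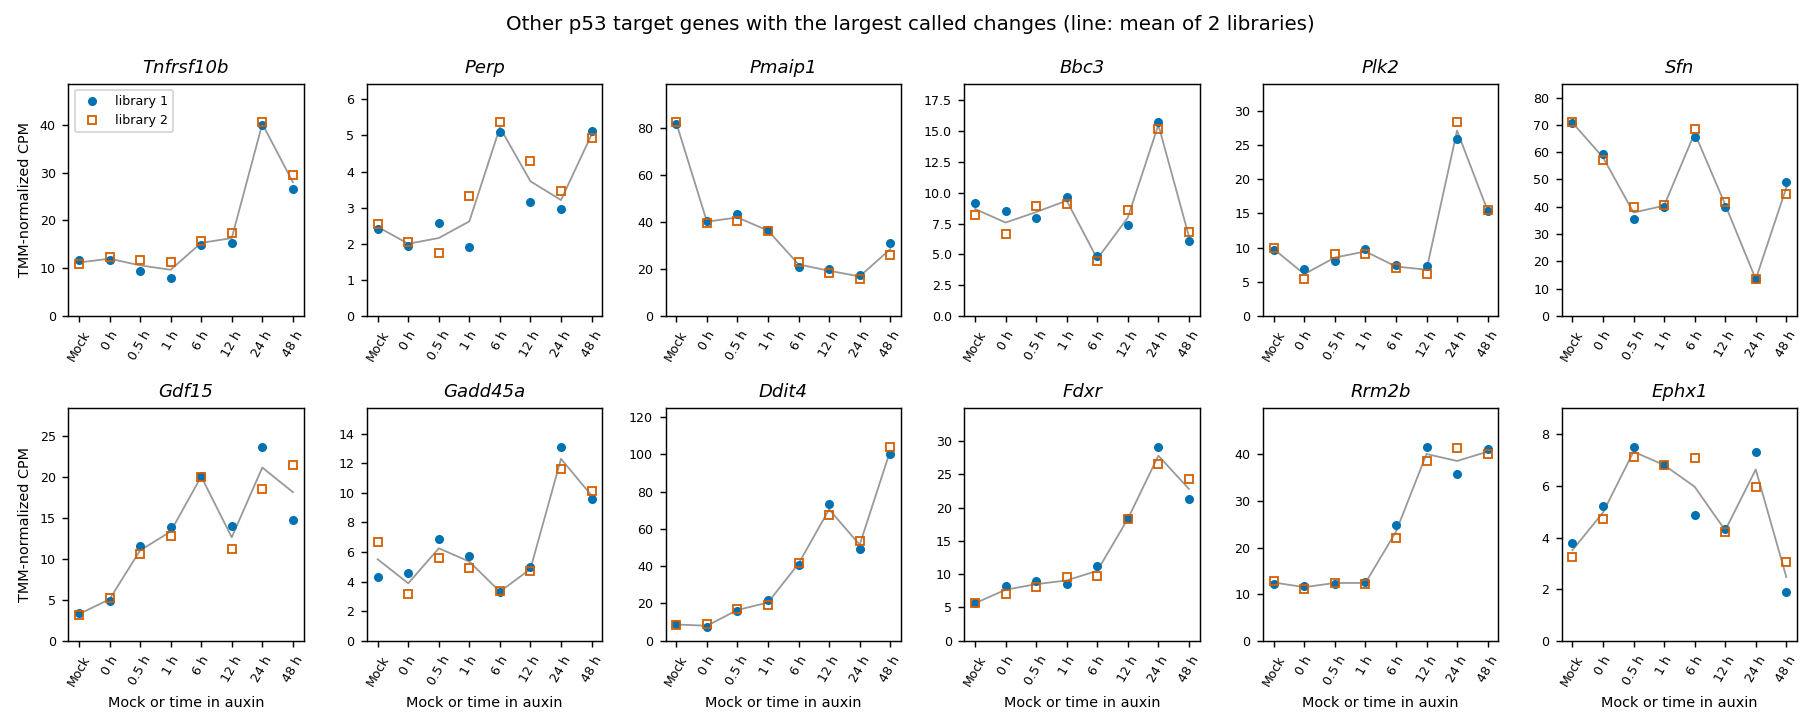
TMM-normalized CPM (y axis, from 0) of the 12 other p53 target genes with the largest called changes against 0 h, 4 of each group of the list, in Mock and at each time in auxin (x axis), with 1 point for each of 2 libraries and a line through their mean. Plk2 and Tnfrsf10b peak at 24 h (27.1 and 40.2 CPM), Sfn is lowest there (13.5 CPM), and Ddit4 is highest at 48 h (102 CPM).

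The 22 genes that encode regulators of p53 were all tested. At 6 h 2 were lower (9.09%, against 5.7% of all genes) and 0 higher (against 10.1%), and at 12 h 1 was higher (4.55%, against 14.8%) and 4 lower (18.2%, against 13.2%). At 24 h 3 were higher and 3 lower (13.6% each, against 20.2% and 20.3%), and at 48 h 2 were higher (9.09%, against 17.9%) and 3 lower (13.6%, against 17.6%). Trp53bp1, which encodes the damage response protein 53BP1, had 75.4/78.8 CPM at 0 h and 32.3/37.5 after 6 h, and fell by 1.14 (± 0.06 SE, padj = 1.1e-12). At 48 h it had 57.9 and 58.7 CPM (-0.40, under the fold threshold). Cdkn2a, the locus of p16 and of ARF, which blocks MDM2, was lower at 12, 24 and 48 h, by log2 fold changes of -0.84, -1.01 and -1.09 (SE 0.10 to 0.11). Mdm4, which encodes a partner of MDM2 that inhibits p53, was higher at 12, 24 and 48 h, by 0.78, 0.83 and 0.72 (± 0.05 SE), and was chosen for mention after its values were seen. Trp53bp2, which encodes the p53-binding protein ASPP2, rose by 1.08 (± 0.09 SE) at 48 h, and Sirt1, a deacetylase gene, fell by 0.93 (± 0.05 SE) at 24 h. Sirt1 had -0.15 at 48 h against 0 h, not called, and was higher at 48 h than at 24 h by 0.78 (± 0.05 SE). Of the p53 family, Trp63 had 0 to 5 counts per library and was not tested, and Trp73 had 2.51/1.25 CPM at 0 h and 3.65/5.42 after 24 h (log2 fold change 1.27, ± 0.32 SE, padj = 0.0014). Trp73 was also higher at 0 h than in Mock (0.695/0.923 CPM), by 1.21, before any auxin, and lower at 48 h than at 24 h (-1.12). It had 9 to 69 counts per library.

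Genes that could share reads with Trp53 had low counts. Wrap53, its antisense neighbour, had 180 to 321 counts per library, was called in no comparison, and shares no exon bases with Trp53 in GENCODE M21. The pseudogene Trp53-ps had 0 to 4 counts per library and was not tested.

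Markers of other cells were low, and some moved with time in auxin. Of 13 fibroblast markers, which would show feeder cells, 4 were tested (Col1a1, Thy1, Pdgfrb and Loxl1), Col1a2, Dcn, Col3a1, Lum and Postn had 0 to 3 counts per library, and Fap had 0 in every library. Their summed TPM was 5.88 to 6.46 in Mock, 5.35 to 6.28 at 0 h, 6.59 to 7.82 at 0.5 h, 6.76 to 7.06 at 1 h, 11 to 11.8 at 6 h, 12.5 to 14.1 at 12 h, 14.8 to 15.4 at 24 h and 11.5 to 12.1 at 48 h. Much of this range came from Pdgfrb, which had a mean of 0.92 TPM at 0 h and 9.13 at 24 h (log2 fold change 3.28), and without it the sum was 4.67 to 5.11 at 0 h, 7.94 to 8.41 at 6 h and 5.32 to 6.62 at 24 h. Of the 4 tested, 3 were higher at 6 h (75%, against 10.1% of all genes), Pdgfrb, Col1a1 (log2 fold change 1.93) and Thy1 (0.94). At 12 h 2 were higher (50%, against 14.8%), at 24 h 1 (25%, against 20.2%) and at 48 h 2 (50%, against 17.9%). Col1a1 had 2 to 16 counts per library. Loxl1 was called at none of the auxin times. Summed TPM of 7 primitive endoderm markers (5 tested) went from 5.06 to 6.14 at 0 h to 10.6 to 11.8 at 48 h, and that of 5 trophectoderm markers (2 tested) from 8.78 to 9.78 at 0 h to 15 to 15.3 at 24 h. Of the 5 endoderm markers tested, 1 was higher at 6 h (20%, against 10.1% of all genes) and 2 at 12 h (40%, against 14.8%). At 24 h 3 were higher (60%, against 20.2%) and at 48 h 4 (80%, against 17.9%). Gata6, called from 12 h on, had 2 to 20 counts per library. Of the 2 trophectoderm markers tested, Eomes was higher at 12, 24 and 48 h (log2 fold change 0.90 at 48 h). Krt7 was lower at 48 h (-0.75), so 50% had each sign there (17.9% and 17.6% of all genes). Embryonic stem cell markers summed to 12256 to 12299 TPM at 0 h, 10418 to 10449 at 24 h and 11136 to 11274 at 48 h. Of these 11 genes 3 were lower at 24 h than at 0 h, Nanog with a log2 fold change of -1.20, Zfp42 with -1.54 and Utf1 with -0.82 (27.3%, against 20.3% of all genes), and 0 were called at 48 h against 0 h. The part of these cells in the values of Phlda3, Cdkn1a and the other genes was not tested.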

How the data were processed

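The RNA-Seq libraries of 8 conditions were assigned by their sample labels. Per the submitters' processing notes and the methods, reads went through cutadapt 1.18, STAR 2.7.3a (mm10), removal of duplicates and RSEM 1.3.1 with GENCODE M23, and the authors used DESeq2 1.24.0 for their comparisons. Removing duplicates can lower the values of abundant mRNAs, and the sources used here do not say whether counting used the strand. The authors deposited expected counts, the RSEM estimates before any normalization, of which 6.76 to 7.94% per library were fractional. They also deposited TPM, which the authors' RSEM run scaled to gene length and to each library. The authors' table of fold changes and adjusted p-values was not used.

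Expected counts were rounded, filtered with filterByExpr (15155 of 55335 genes left) and normalized by TMM, and 1 quasi-likelihood model was fitted to all 16 libraries (R 4.3.3, edgeR 4.0.16). The biological coefficient of variation was 3.43%. Each SE is the absolute log2 fold change over the square root of its F. Alternatives used DESeq2 1.42.0 and limma 3.58.1: other scalings, filters and thresholds, other tools, the replicate number as a block, each library left out and Mock as the baseline. The steps were tested on simulated data. Gene positions are from GENCODE M21 (GRCm38), with the same ID version for all 10 genes, and promoter windows are from RefSeq.

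The 10 genes and the other lists were chosen with earlier results of these data known. Genes named beyond the 10 are, in each list, up to 4 called genes with the largest change against 0 h, the 3 genes nearest in pattern to Trp53, Mdm2 and Cdkn1a, the genes that could share reads with Trp53, and markers as sums. Mdm4, Sesn2, Pidd1 and the markers named singly are outside this rule. Total expected counts of 11666732 to 13924958 per library set the precision, and intervals cover the spread between libraries as modelled by edgeR.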

Additional observations from a re-analysis of the deposited data

Results flagged for a closer look

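Of the 10 genes, 2 differed between 24 and 48 h of auxin by a direct test of these times in edgeR. Btg2 was higher at 48 h, with 0.86 ± 0.14 (SE) on the log2 scale and an adjusted p = 1.2e-05. Eda2r was lower at 48 h, with -0.77 ± 0.10 (SE) on the log2 scale and an adjusted p = 5.3e-07. In each gene both libraries of 48 h lay outside those of 24 h.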

How the results depend on the processing

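Of 11 calls among the 10 genes, the 5 of Cdkn1a and Trp53inp1 lie near the fold threshold and the other 6 (Phlda3, Btg2 and Eda2r) farther from it. Of 1200 values under alternatives with the same thresholds and baseline, 1182 stayed on their side, 14 lost the call, each of Cdkn1a or Trp53inp1, and 4 passed. With a fold over 2 or none and with Mock as baseline included, 1349 of 1420 stayed, 28 lost it (11 of these with a fold over 2), 43 passed (31 of these with no fold threshold) and 0 reversed with a call. At 24 h against 0 h the count of 2 became 1 with total counts, DESeq2 on 16 libraries and limma on log2(TPM + 1) or log2(TPM + 0.1), since Cdkn1a had -0.56 to -0.58. At 0 h against Mock the count of 1 became 0 with limma on either scale, without a filter on low counts and with dm6 scaling, which gave 4 at 12 h. A fold over 2 gave 0 in every comparison. No fold threshold gave 6 at 0 h against Mock, 3 at 0.5 h, 1 at 1 h, 6 at 6 h, 6 at 12 h, 7 at 24 h, 8 at 48 h and 5 between 24 and 48 h. The share of all genes passing with no fold threshold is not given here, so these counts cannot be set against it. Leaving out each library in turn gave 0 to 2 at 0 h against Mock, 0 to 1 at 6 h and at 12 h, 1 to 2 at 24 h, 4 to 4 at 48 h, 2 to 2 between 24 and 48 h and 0 to 0 at 0.5 and 1 h.

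With Mock as the baseline 8 of 60 values passed the threshold and 3 lost it, among them Phlda3 at 24 and 48 h. The replicate number as a block changed 0 of 80 values and left, for example, 4 calls at 48 h against 0 h. Deviations of same-numbered libraries had correlations of -0.08 to 0.07 over 28 pairs of conditions, so no shared deviation was seen. This cannot settle whether samples were paired by number, since technical duplicates need not share a deviation. Depth limits Btg2 most, with 5.83 to 14.8 CPM.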
